A study of Mus musculus with 2 samples.

Results

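The genes described here are type I interferon-stimulated genes, a list of 42 symbols looked up in the gene tables of 2 single-cell libraries of injured mouse carotid artery. Of the 42 symbols, 40 were found among the 32285 genes listed, and no value is given for Mx1 and Mx2. The EC-Cx43-KO library (KO below) came from CDH5 Cre+ Cx43fl/fl mice, in which an inducible Cre under the endothelial Cdh5 promoter is designed to delete connexin 43 (gene Gja1) in endothelial cells. The control library came from CDH5 Cre- Cx43fl/fl mice, which carry the same floxed allele without the Cre. Arteries of both groups were taken 18 hr after a ligation injury of the endothelium, opened, digested briefly so as to favour the inner layer, combined by condition and frozen before capture of 3′ RNA ends. The labels do not give the number, age or sex of the mice. Each group is 1 library, so no difference below has a replicate check, no test was possible and no p-value is given. Intervals are exact and at 95%, and they cover counting error only.

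Type I interferons are secreted cytokines that bind the receptor chains Ifnar1 and Ifnar2 on nearly all nucleated cells. The receptor-bound kinases Jak1 and Tyk2 signal to a complex that holds Stat2 and Irf9 and binds a DNA element, the interferon-stimulated response element (ISRE), near the start of many antiviral genes. The products sense, bind or degrade foreign RNA, tag proteins with a ubiquitin-like chain, amplify the response or attract leukocytes. Many of these genes also have a basal level that differs between cell types, and several respond to interferon gamma as well.

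The regions around the starts of the genes that were higher in most classes of the KO library are shown first, because the ISRE is the element through which these genes are classically induced. RefSeq windows on GRCm38.p6, from 250 bases before to 50 bases after a gene's start, were available for 31 of the 40 genes. The lines below give, 5′ to 3′, the windows of the 6 such genes that were at least 1.5-fold higher in 6 or more of 7 cell classes, and that of Ifit3b, the neighbour and close relative of Ifit3. Capitals mark each match to the ISRE core letters GAAANNGAAA on either strand.
Isg15, chr4:156200769-156201068, minus strand: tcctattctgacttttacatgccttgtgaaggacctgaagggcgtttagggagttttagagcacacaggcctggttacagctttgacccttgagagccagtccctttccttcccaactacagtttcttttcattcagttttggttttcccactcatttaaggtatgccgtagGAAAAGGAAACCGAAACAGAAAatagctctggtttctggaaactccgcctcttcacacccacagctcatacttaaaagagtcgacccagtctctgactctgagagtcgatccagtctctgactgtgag
Ifit1, chr19:34640639-34640938, plus strand: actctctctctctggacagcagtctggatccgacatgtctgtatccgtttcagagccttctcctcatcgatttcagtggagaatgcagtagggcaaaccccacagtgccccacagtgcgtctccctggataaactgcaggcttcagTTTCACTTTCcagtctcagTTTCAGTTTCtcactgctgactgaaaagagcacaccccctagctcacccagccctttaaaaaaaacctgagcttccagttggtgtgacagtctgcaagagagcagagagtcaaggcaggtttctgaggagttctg
Ifit3, chr19:34583279-34583578, plus strand: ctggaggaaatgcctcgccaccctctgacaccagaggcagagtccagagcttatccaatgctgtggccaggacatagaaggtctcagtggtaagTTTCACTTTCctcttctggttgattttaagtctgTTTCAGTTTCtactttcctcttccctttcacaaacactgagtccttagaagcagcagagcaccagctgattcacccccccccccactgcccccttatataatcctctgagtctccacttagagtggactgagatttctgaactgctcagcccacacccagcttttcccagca
Ifit3b, chr19:34607707-34608006, plus strand: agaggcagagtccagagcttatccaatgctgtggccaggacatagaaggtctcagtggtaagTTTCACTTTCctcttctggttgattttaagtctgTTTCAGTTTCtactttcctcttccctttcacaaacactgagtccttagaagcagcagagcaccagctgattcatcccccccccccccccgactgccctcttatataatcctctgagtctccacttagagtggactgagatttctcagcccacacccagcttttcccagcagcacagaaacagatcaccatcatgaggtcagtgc
Rsad2, chr12:26456403-26456702, minus strand: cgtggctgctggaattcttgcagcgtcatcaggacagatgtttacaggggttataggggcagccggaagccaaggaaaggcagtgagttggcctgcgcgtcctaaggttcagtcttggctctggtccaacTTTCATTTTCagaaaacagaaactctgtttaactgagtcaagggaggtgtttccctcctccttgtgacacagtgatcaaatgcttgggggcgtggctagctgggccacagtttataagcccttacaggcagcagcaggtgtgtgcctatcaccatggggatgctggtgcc
Irf7, chr7:141266375-141266674, minus strand: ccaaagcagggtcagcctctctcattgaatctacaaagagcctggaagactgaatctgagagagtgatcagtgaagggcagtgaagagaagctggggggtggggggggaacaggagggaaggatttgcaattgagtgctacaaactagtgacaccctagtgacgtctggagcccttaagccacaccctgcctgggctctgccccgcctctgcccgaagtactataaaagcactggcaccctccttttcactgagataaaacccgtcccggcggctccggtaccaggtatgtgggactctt
Cxcl10, chr5:92348840-92349139, minus strand: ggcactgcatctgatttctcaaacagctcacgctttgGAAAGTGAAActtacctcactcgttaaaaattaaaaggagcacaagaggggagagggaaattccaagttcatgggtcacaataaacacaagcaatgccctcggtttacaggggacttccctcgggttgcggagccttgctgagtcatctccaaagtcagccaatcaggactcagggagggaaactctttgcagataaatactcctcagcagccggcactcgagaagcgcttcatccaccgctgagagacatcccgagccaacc

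Isg15 had 3 overlapping matches, which begin 78, 72 and 66 bases before the start. Ifit1 had 2 matches, at 104 and 85 bases, and Ifit3 had 2, at 156 and 122 bases. In the Ifit3b window the 2 matches lay at 188 and 154 bases, and 57.4% of the 31-base words of the Ifit3 window recurred there. Rsad2 and Cxcl10 each had 1 match, at 120 and 213 bases, and the Irf7 window held none. Of the 31 genes, 20 (64.5%) had an ISRE match, against 3.99% of the 27025 genes in the whole table. An ISRE match was present for 8 of the 15 genes that were higher in at least 5 classes (53.3%) and for 12 of the other 16 (75%). Ifi44, Oasl1, Oasl2, Irf7, Xaf1, Cmpk2 and Phf11d were higher in at least 5 classes and had no match. A match is a description of letters, and a missing one says only that these letters are not in this window.

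Several of the genes are neighbours. The 5 Ifit genes lie within 99.3 kb on chromosome 19 (34550694 to 34650009, GRCm38), the 6 Ifi200 genes within 563 kb on chromosome 1 (173468485 to 174031810), and Rsad2 and Cmpk2 within 37.1 kb on chromosome 12. Near-identical 3′ ends make some counts uncertain. In the last 500 bases of the transcript, Ifi211 shared 86.4% of its 31-base words with Ifi205, Ifi209 shared 71.7% with Ifi214, and Oas1a shared 70.0% with Oas1g. Phf11d shared 60.6% and Phf11b 54.0% with Phf11c, Ifit1bl1 29.6% with Ifit1bl2, Ifi213 25.5% with Ifi208, and Ifit3 24.0% with Ifit3b. How reads that match several copies were counted is not given in the sources used here.

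The KO library held 8315 cell barcodes and the control library 7298, with medians of 4590 UMIs in KO and 4483 UMIs in control (unique molecular identifiers, 1 for each captured RNA molecule) and 17 barcodes in common. After filtering, 7236 KO and 6376 control cells were kept and sorted into classes by marker genes, after a clustering that left out the 40 genes. Levels are counts per 1e6 UMIs of the class (CPM), and since 1 molecule gives 1 tag they need no correction for gene length. The 7 classes described are endothelial (EC)-like, smooth muscle (SMC)-like, fibroblast-like, monocyte/macrophage-like, dendritic-like, neutrophil-like and T/NK-like cells, of 163 to 1965 cells in KO and 130 to 1529 in control. Defining markers were present: Cdh5 was at 748 CPM in KO and 725 CPM in control EC-like cells, and Myh11 at 3069 CPM in KO and 3035 CPM in control SMC-like cells. Gja1 had 101 UMIs in KO and 91 in control EC-like cells, but neither the labels nor 3′ counts say which part of the gene was removed, so this does not check the genotype. Both pools held cells with Xist RNA alone (38.2% in KO and 49.3% in control) and cells with RNA of 4 Y-linked genes alone (26.9% in KO and 18.2% in control), and results within these cells stand below because they differ.

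Summed over the 40 genes, levels were highest in the myeloid classes of both libraries. Monocyte/macrophage-like cells stood at 9355 CPM in KO (9305 to 9406) and 4373 CPM in control (4335 to 4412). Neutrophil-like cells were at 7454 CPM in KO and 3969 CPM in control, and dendritic-like cells at 4840 CPM in KO and 3329 CPM in control. Among the remaining classes the order was not the same in the 2 libraries. In KO, fibroblast-like cells (3015 CPM) came next, then T/NK-like (1688 CPM), SMC-like (1364 CPM, 1333 to 1396) and EC-like cells (1274 CPM, 1240 to 1309). In control, T/NK-like cells (1462 CPM) came next, then fibroblast-like (1306 CPM), EC-like (886 CPM, 857 to 915) and SMC-like cells (328 CPM, 311 to 346). The intervals of neighbouring classes in these orders did not overlap.

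**Figure D1:**
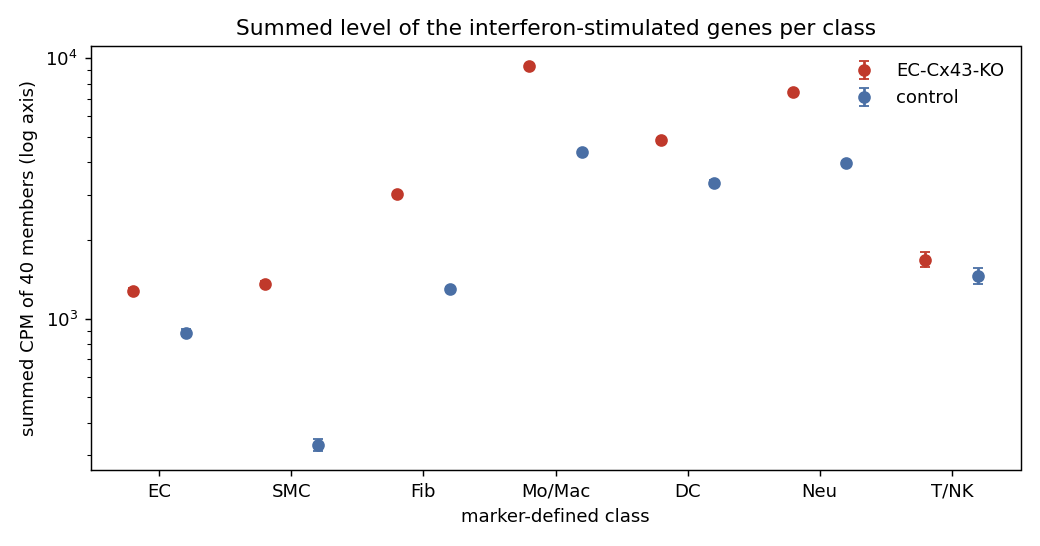
Summed CPM of the 40 genes (vertical log axis) in each marker-defined class (horizontal axis; Fib, fibroblast-like; Mo/Mac, monocyte/macrophage-like; DC, dendritic-like; Neu, neutrophil-like), for the EC-Cx43-KO and the control library; bars are 95% Poisson intervals, mostly smaller than the points. The EC-Cx43-KO point is the higher one in all 7 classes, from 1688 against 1462 CPM in T/NK-like cells to 1364 against 328 CPM in SMC-like cells.

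Few genes were tied to 1 class. A gene was called restricted where its highest class was at least 3-fold above every other, and shared where all 7 classes lay within 4-fold of the highest. By this rule 2 genes in KO and 4 in control were restricted, 2 in KO and 2 in control were shared, and the remaining 36 in KO and 34 in control were graded. Ifi27l2b, a small hydrophobic relative of Ifi27l2a that lies beside it on chromosome 12, was restricted in both libraries, to EC-like cells. It had 87 UMIs in KO and 46 in control EC-like cells (21.3 CPM in KO and 11.3 CPM in control), 12.7-fold above SMC-like cells in KO and 11.6-fold in control. Monocyte/macrophage-like, neutrophil-like and T/NK-like cells had no Ifi27l2b UMI in either library. Ifi27l2a was found in all 7 classes. It was highest in monocyte/macrophage-like cells, at 1952 CPM in KO and 1018 CPM in control, and lowest in SMC-like cells, at 94.4 CPM in KO and 15.6 CPM in control.

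The other 3 genes restricted in control were highest in neutrophil-like cells, and in KO they were graded. Rsad2 encodes viperin, which makes an antiviral nucleotide, and stood at 1062 CPM in KO and 336 CPM in control neutrophil-like cells. Monocyte/macrophage-like cells were next, at 598 CPM in KO and 96.9 CPM in control, a lead of 1.78-fold in KO and 3.47-fold in control. Oasl2, a relative of the 2′-5′-oligoadenylate synthetases with ubiquitin-like domains, was at 579 CPM in KO and 419.7 CPM in control neutrophil-like cells, and at 203 CPM in KO and 135 CPM in control monocyte/macrophage-like cells, a lead of 2.85-fold in KO and 3.12-fold in control. Ifit3b was at 104 CPM in KO and 21.2 CPM in control neutrophil-like cells, 2.21-fold above SMC-like cells in KO and 3.11-fold above fibroblast-like cells in control. The control leads of Oasl2 and Ifit3b lie just above the 3-fold limit. In KO, Cxcl10, a chemokine that attracts activated T cells, was restricted to monocyte/macrophage-like cells, 3.48-fold above neutrophil-like cells, whereas in control its lead there was 1.95-fold.

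Shared genes differed between the libraries. In control they were Ifit2, an RNA-binding antiviral protein, and Stat2. Ifit2 lay between 5.95 CPM (T/NK-like) and 15.7 CPM (neutrophil-like) in control, but in KO between 8.57 CPM (EC-like) and 136 CPM (monocyte/macrophage-like). In KO the shared genes were Xaf1, a proapoptotic zinc finger protein, at 23.9 to 87.9 CPM, and Eif2ak2, the RNA-dependent kinase PKR, at 36.7 to 97.1 CPM. In control, Xaf1 lay between 10.4 and 45.9 CPM and Eif2ak2 between 11.9 and 65.0 CPM. The lowest control levels of Ifit2 and Eif2ak2 were those of T/NK-like cells, the class with the fewest UMIs. These levels rest on few UMIs, and so do the control calls of Ifit2 as shared and Eif2ak2 as graded. The lowest KO levels of Xaf1 and Stat2, both 23.9 CPM, were also those of T/NK-like cells. The KO calls of Xaf1 as shared and Stat2 as graded therefore rest on few UMIs too.

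Most genes peaked in myeloid cells. Monocyte/macrophage-like cells were the highest class for 19 genes in KO and 15 in control, and neutrophil-like cells for 18 in KO and 17 in control, while SMC-like cells were highest for 0 in both. The highest class was the same in both libraries for 30 of the 40 genes. T/NK-like cells were highest in control for Ifi206, Ifi213 and Herc6, at 91.3, 69.5 and 81.4 CPM. Dendritic-like cells were highest in control for Phf11b and Bst2, fibroblast-like cells for Phf11d, and EC-like cells for Ifi44 and Ifi27l2b. For 14 genes in KO and 17 in control, 12 of them in both, all 4 blood-derived classes were above all 3 wall classes (EC-like, SMC-like and fibroblast-like). The rules for restricted, shared, highest class and blood above wall were applied to the 40 genes only. No share of all genes stands beside these counts.

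**Figure D2:**
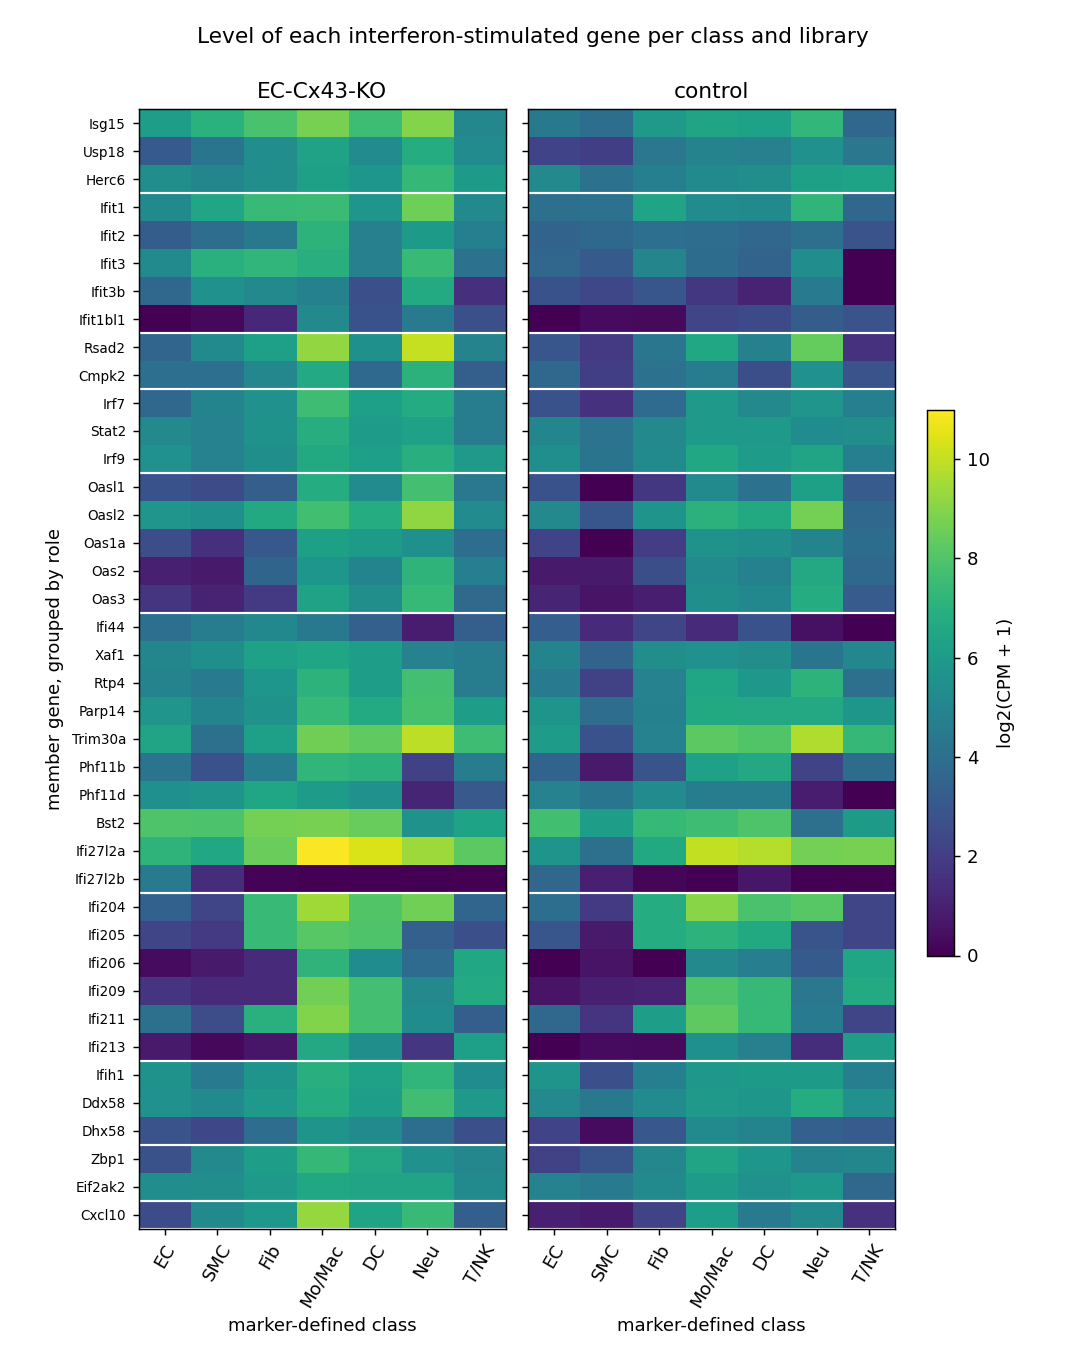
Level of each of the 40 genes as log2(CPM + 1) (colour), genes in rows grouped by role and classes in columns, EC-Cx43-KO on the left and control on the right; white lines separate role groups. Ifi27l2a is among the brightest rows, at 1952 CPM in EC-Cx43-KO and 1018 CPM in control monocyte/macrophage-like cells, and Ifi27l2b is visible mainly in EC-like cells.

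Between the libraries, the summed level was higher in KO in all 7 classes, by unequal amounts. It was 4.15-fold higher in SMC-like cells (log2 ratio 2.05, 1.97 to 2.14), 2.31-fold in fibroblast-like, 2.14-fold in monocyte/macrophage-like and 1.88-fold in neutrophil-like cells. The difference was smaller in dendritic-like cells (1.45-fold), EC-like cells (1.44-fold; log2 ratio 0.52, 0.46 to 0.59) and T/NK-like cells (1.15-fold; 0.21, 0.07 to 0.35). EC-like cells are the class in which the Cre is driven.

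Gene by gene, a member was measured in a class with at least 20 UMIs there over both libraries, and called higher or lower where its log2 ratio reached 0.58 or -0.58, which is 1.5-fold. A gene can pass this filter through the library where it is high, so the counts are descriptions. In SMC-like cells 29 of 31 measured genes were higher and 0 lower, where 5.4% of all genes were higher and 4.81% lower, and the median log2 ratio was 2.41, against -0.04 for all genes. In fibroblast-like cells 34 of 38 were higher and 0 lower, where 5.56% of all genes were higher and 6.27% lower (medians 1.08 and -0.08). In monocyte/macrophage-like cells 33 of 39 were higher and 0 lower, where 9.15% of all genes were higher and 3.58% lower (medians 0.99 and -0.05). Neutrophil-like cells had 25 of 35 higher and 0 lower, beside 8.26% and 11.0% of all genes (medians 0.93 and -0.07).

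The other 3 classes had smaller shares. In EC-like cells 16 of 34 genes were higher and 2 lower, beside 4.35% higher and 6.7% lower of all genes (medians 0.51 and -0.06). In dendritic-like cells 16 of 38 were higher and 0 lower, beside 6.86% and 11.9% (medians 0.53 and -0.10). In T/NK-like cells 10 of 23 were higher and 1 lower, beside 10.4% and 14.4% (medians 0.38 and -0.04), and the cells differed in makeup, with the 6 NK markers at 383 CPM in KO and 1361 CPM in control. In clusters left unnamed, the summed level was 6323 CPM in KO and 2984 CPM in control for the Fabp5-led one, with 34 of 38 genes higher and 0 lower beside 6.26% and 7.68% of all genes. For the shallow Cacna1d-led one it was 4589 CPM in KO and 2708 CPM in control, with 26 of 34 higher and 0 lower beside 11.6% and 10.1%. All 40 genes were measured in at least 1 class and 18 in all 7. Of the 40 genes, 18 were higher in at least 5 classes, a count for which no share of all genes is given here.

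**Figure D3:**
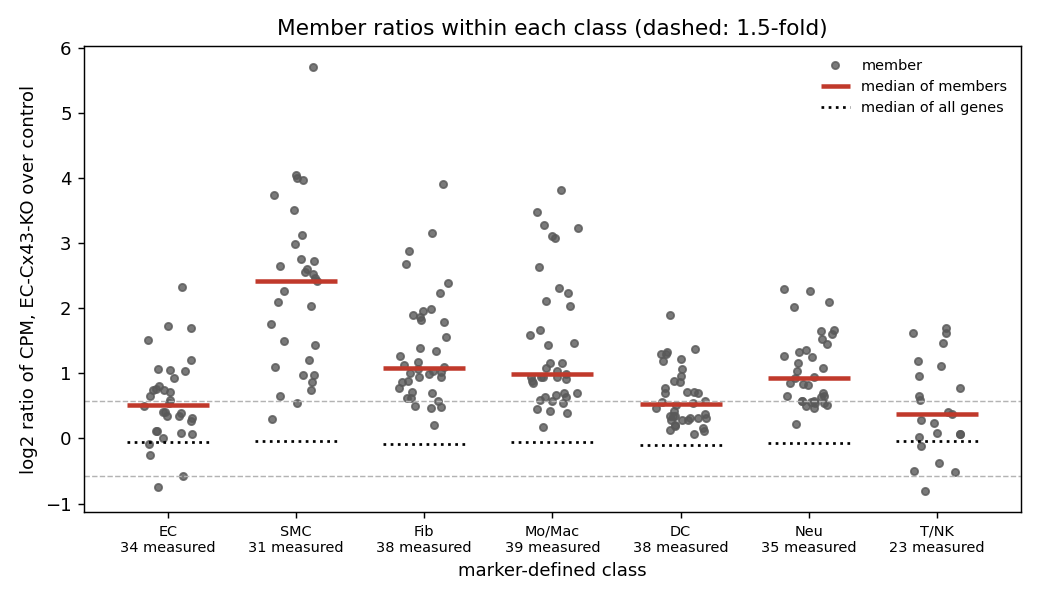
Log2 ratio of CPM, EC-Cx43-KO over control (vertical axis), of each measured gene (points) in each class (horizontal axis, with the number measured), with the median of these genes, the median of all genes and dashed lines at 1.5-fold. The median of the measured genes is highest in SMC-like cells, at 2.41, and lowest in T/NK-like cells, at 0.38.

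Isg15, the ubiquitin-like protein that is conjugated to other proteins, was called higher in all 7 classes. It was at 68.8 CPM in KO and 20.8 CPM in control EC-like cells and at 129.9 CPM in KO and 14.8 CPM in control SMC-like cells. Fibroblast-like cells had 229.7 CPM in KO and 61.4 CPM in control, and monocyte/macrophage-like cells 426 CPM in KO and 85.7 CPM in control. Neutrophil-like cells had the highest level in both libraries, 489.8 CPM in KO and 156 CPM in control. Dendritic-like cells had 190.2 CPM in KO and 77.5 CPM in control, and T/NK-like cells the lowest, 33.0 CPM in KO and 11.9 CPM in control, from 18 UMIs in KO and 6 in control. Its log2 ratios ran from 1.30 in dendritic-like to 3.13 in SMC-like cells. Usp18, the protease that removes Isg15 from its targets and dampens the receptor, was higher in 6 of 7 classes (0.54 to 2.53). Herc6, the ligase that attaches Isg15 in mice, was higher in 4 of 7, from 161 CPM in KO and 76.2 CPM in control in neutrophil-like cells (1.08) to 62.4 CPM in KO and 81.4 CPM in control in T/NK-like cells (-0.38).

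The Ifit proteins bind RNA that lacks the host's cap marks. Ifit3 was higher in 6 of the 6 classes where it was measured, with 124 CPM in KO and 7.77 CPM in control SMC-like cells (4.00, interval 3.49 to 4.56). It was also at 148 CPM in KO and 31.5 CPM in control fibroblast-like cells (2.23) and at 117 CPM in KO and 13.8 CPM in control monocyte/macrophage-like cells (3.08). EC-like cells had less, 36.5 CPM in KO and 11.3 CPM in control (1.70), and T/NK-like cells had 9 UMIs in KO and 0 in control. Ifit1 was higher in 6 of 7 classes, with the highest ratio at 89.3 CPM in KO and 16.8 CPM in control SMC-like cells (2.41) and the lowest at 52.9 CPM in KO and 35.9 CPM in control dendritic-like cells (0.56). Ifit3b was higher in 5 of 5, at 1.06 to 3.51. Ifit2 differed between blood and wall, with ratios of 3.27 in monocyte/macrophage-like (136 CPM in KO and 14.1 CPM in control) and 2.02 in neutrophil-like cells, but 0.47 in fibroblast-like, 0.30 in SMC-like and -0.26 in EC-like cells (8.57 CPM in KO and 10.3 CPM in control). Ifit1bl1 was found mainly in blood-derived cells, at 37.0 CPM in KO and 3.94 CPM in control monocyte/macrophage-like cells (3.23), with 0 UMIs in EC-like cells of both libraries.

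Rsad2 was higher in 6 of 6 classes, from 44.6 CPM in KO and 27.2 CPM in control in dendritic-like cells (0.71) to 35.7 CPM in KO and 2.67 CPM in control in SMC-like cells (3.74). Its neighbour Cmpk2, a mitochondrial nucleotide kinase on the opposite strand, was higher in 5 of 6. EC-like cells were the exception for Cmpk2, at 15.4 CPM in KO and 11.8 CPM in control (0.39).

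The oligoadenylate synthetases make a messenger that activates an RNA-degrading enzyme. Oas2 was at 142 CPM in KO and 97.3 CPM in control neutrophil-like cells (0.54) and Oas3 at 166 CPM in KO and 112 CPM in control neutrophil-like cells (0.57), both below 1.5-fold. Oas3 was higher in monocyte/macrophage-like cells, 78.9 CPM in KO and 43.9 CPM in control (0.85), and had at most 9 UMIs per library in EC-like and SMC-like cells. Oas1a, Oas2 and Oas3 were each higher in 2 classes, among them fibroblast-like cells. Their relatives differed in more classes: Oasl1 was higher in 5 of 6 classes and Oasl2 in 5 of 7. In SMC-like cells Oasl1 had 26 UMIs in KO and 0 in control, at least 6.64-fold higher against a floor of 3 UMIs, and in EC-like cells it had 24 UMIs in each library.

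Of the transcription factors on the list, Irf7, which amplifies interferon production, differed most. It was at 193 CPM in KO and 60.8 CPM in control monocyte/macrophage-like cells (1.66), at 109 CPM in KO and 52.9 CPM in control neutrophil-like cells (1.04) and at 30.5 CPM in KO and 1.94 CPM in control SMC-like cells (3.97, interval 2.96 to 5.21). T/NK-like cells had 13 Irf7 UMIs in each library. Irf9, the DNA-binding part of the Stat complex, was close to even in most classes, with 46.3 CPM in KO and 43.8 CPM in control EC-like cells (0.08) and 103 CPM in KO and 91.8 CPM in control monocyte/macrophage-like cells (0.17). It was called higher in SMC-like cells (0.65) and T/NK-like cells (1.19). Stat2 was higher in 3 of 7 classes, with 114 CPM in KO and 59.5 CPM in control monocyte/macrophage-like cells (0.94), and lower in T/NK-like cells, from 13 UMIs in KO and 21 in control (-0.81).

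The cytosolic RNA sensors showed little difference in EC-like cells. Ifih1 (MDA5) was at 47.5 CPM in KO and 50.2 CPM in control there (-0.08), but at 22.7 CPM in KO and 5.34 CPM in control SMC-like cells (2.09) and 149.5 CPM in KO and 62.6 CPM in control neutrophil-like cells (1.25), and was higher in 5 of 7 classes. Ddx58 (RIG-I) was higher in 4 of 7, within a narrow range of ratios from 0.29 to 0.88, and was highest at 198 CPM in KO and 110.4 CPM in control neutrophil-like cells. Dhx58 (LGP2), which modulates both sensors, was higher in 4 of 6, and in SMC-like cells had 23 UMIs in KO and 1 in control. Zbp1, a sensor of Z-form nucleic acids linked to cell death, was higher in 6 of 7, with 159.6 CPM in KO and 84.7 CPM in control monocyte/macrophage-like cells (0.91) and 35.0 CPM in KO and 6.32 CPM in control SMC-like cells (2.47). Eif2ak2 was higher in 4 of 7 (0.54 to 1.62).

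The Ifi200 proteins bind DNA or regulate transcription, and in EC-like cells 0 of the 3 measured were higher and 2 were lower. Ifi204 had 40 UMIs in KO and 60 in control there (-0.58, interval -1.20 to 0.02), and Ifi205 16 UMIs in KO and 27 in control (-0.75, interval -1.75 to 0.19). After subtraction of free RNA the Ifi204 ratio in EC-like cells was 0.02. Ifi204 was the highest Ifi200 gene in monocyte/macrophage-like cells, at 698 CPM in KO and 523 CPM in control (0.42). The same held in neutrophil-like cells, at 399 CPM in KO and 284 CPM in control (0.49). Ifi204 was called higher in fibroblast-like cells alone (169 CPM in KO and 109.7 CPM in control, 0.62). In monocyte/macrophage-like cells 5 of the 6 genes were higher, among them Ifi206 at 143 CPM in KO and 34.7 CPM in control (2.04) and Ifi211 at 475 CPM in KO and 307 CPM in control (0.63). In T/NK-like cells Ifi206, Ifi209 and Ifi213 were measured and none was called, with ratios of 0.06, 0.02 and 0.08. Fibroblast-like cells had 23 Ifi206 UMIs in KO and 0 in control, at least 7.31-fold higher against the floor.

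Among the remaining effectors, Bst2 (tetherin, which holds budding virions at the membrane) was the highest gene of the control wall classes. It was at 249 CPM in KO and 200 CPM in control EC-like cells (0.31), at 235 CPM in KO and 69.7 CPM in control SMC-like cells (1.75) and at 413 CPM in KO and 163 CPM in control fibroblast-like cells (1.34). Neutrophil-like cells had the least, 47.7 CPM in KO and 15.7 CPM in control. Trim30a, a damper of Toll-like receptor signalling, was the highest gene of control neutrophil-like cells and nearly even there, at 954 CPM in KO and 820.4 CPM in control (0.22), and was higher in SMC-like and fibroblast-like cells only (1.44 and 1.39). Ifi27l2a was higher in 5 of 7 classes, with 143 CPM in KO and 50.2 CPM in control EC-like cells (1.51) and 358 CPM in KO and 101 CPM in control fibroblast-like cells (1.82). In T/NK-like cells it stood at 299 CPM in KO and 427 CPM in control (-0.51). The restricted Ifi27l2b was higher in EC-like cells, its 1 measured class (0.92, interval 0.39 to 1.47).

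Ifi44, a cytoplasmic protein induced by interferon, was higher in 5 of 5 classes, with 24.2 CPM in KO and 1.46 CPM in control SMC-like cells (4.05), 34.1 CPM in KO and 3.85 CPM in control fibroblast-like cells (3.15) and 21.1 CPM in KO and 1.49 CPM in control monocyte/macrophage-like cells (3.82). Neutrophil-like cells had 2 Ifi44 UMIs in KO and 1 in control. Phf11d was likewise scarce in neutrophil-like cells, with 3 UMIs in KO and 2 in control, and was higher in 5 of 5 classes elsewhere. Phf11b was higher in 5 of 6 classes and Xaf1 in 5 of 7. Rtp4, a receptor chaperone, and Parp14, an ADP-ribosyltransferase, were each higher in 4 of 7. Parp14 was even in EC-like cells (52.6 CPM in KO and 50.4 CPM in control, 0.06) and dendritic-like cells (103 CPM in KO and 99.5 CPM in control, 0.06).

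Cxcl10 was higher in 6 of 6 classes, with ratios of 1.89 (dendritic-like) to 5.70 (SMC-like). It had 203 UMIs in KO and 3 in control SMC-like cells (5.70, interval 4.13 to 7.99) and 846 UMIs in KO and 54 in control fibroblast-like cells (3.90). In monocyte/macrophage-like cells, where it was most abundant, it stood at 609.9 CPM in KO and 70.9 CPM in control (3.10). EC-like cells had 20 UMIs in KO and 4 in control (2.32, interval 0.74 to 4.33).

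The share of cells that carried these transcripts was higher in KO in all 7 classes, and in dendritic-like and T/NK-like cells the intervals of the libraries overlapped. To count them at equal depth, each cell was thinned to 1000 UMIs and called positive with at least 3 UMIs of the 40 genes. In SMC-like cells the positive share was 8.32% in KO (6.13% to 11.0%) and 2.07% in control (0.897% to 4.03%), and in EC-like cells 15.5% in KO (12.4% to 19.0%) and 8.90% in control (6.37% to 12.0%). Fibroblast-like cells had 31.6% in KO and 16.4% in control, and T/NK-like cells 24.8% in KO (17.7% to 33.0%) and 12.3% in control (6.69% to 20.1%). Shares were higher in myeloid cells, at 65.4% in KO and 54.0% in control monocyte/macrophage-like cells, 58.7% in KO (51.7% to 65.5%) and 49.7% in control (42.5% to 57.0%) dendritic-like cells, and 55.8% in KO and 41.5% in control neutrophil-like cells. Thinning left out 384 KO and 293 control neutrophil-like cells, and between 0 and 140 cells per library in the other 6 classes. Without thinning the ratio of the shares was closer to even, for example 69.6% in KO and 69.2% in control EC-like cells, and 53.5% in KO and 37.5% in control SMC-like cells. In percentage points the SMC-like shares lay further apart than after thinning.

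The counts were also concentrated within classes. Without thinning, so that differences in depth between cells are included, the top 10% of SMC-like cells held 78.7% of the UMIs of the 40 genes in KO and 48.8% in control. After thinning, 66.5% of SMC-like cells in KO and 77.3% in control had none. The highest single SMC-like cell had 26 of its 1000 UMIs from these genes in KO and 12 in control. Again without thinning, the top 10% held 61.5% in KO and 54.5% in control fibroblast-like cells, and 52.0% in KO and 40.6% in control monocyte/macrophage-like cells. In dendritic-like cells it held 35.6% in KO and 34.9% in control.

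**Figure D4:**
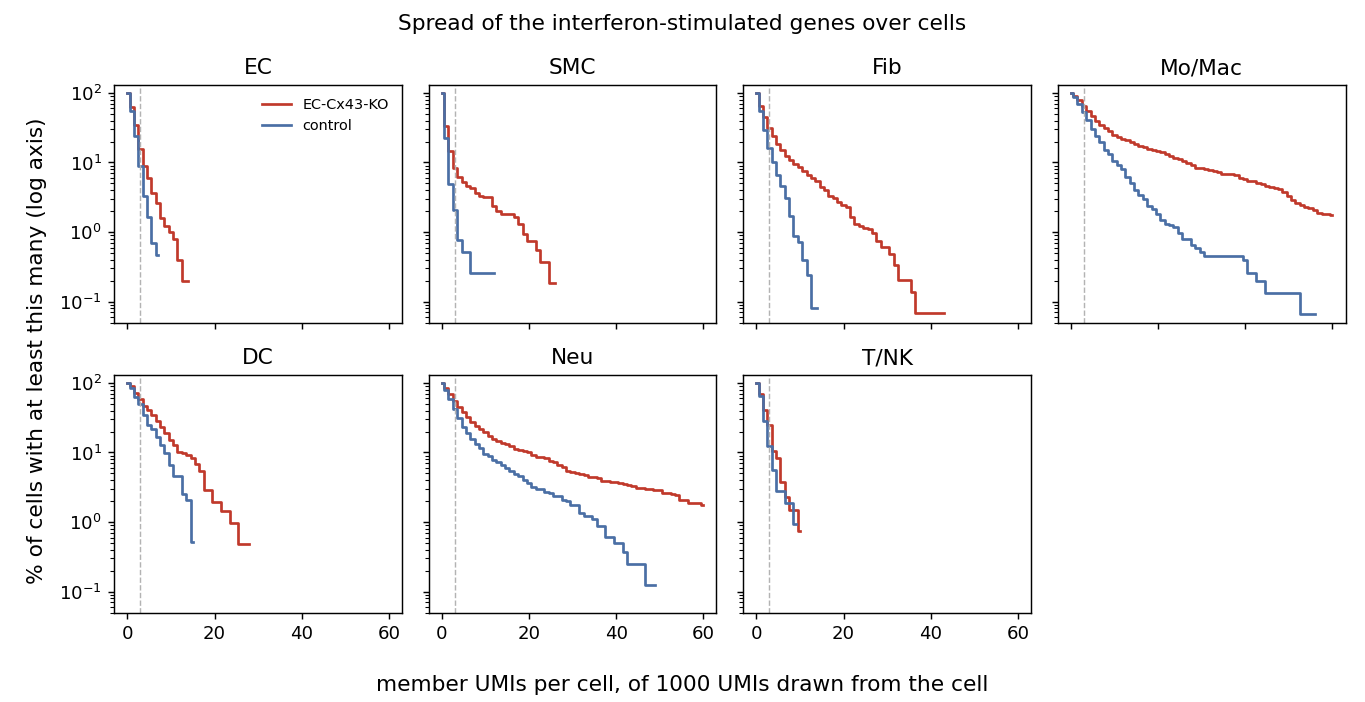
Percent of cells (vertical log axis) with at least a given number of UMIs of the 40 genes among 1000 UMIs drawn from the cell (horizontal axis, shown to 60), 1 panel per class, for the EC-Cx43-KO and the control library; the dashed line marks 3 UMIs. In SMC-like cells 66.5% in EC-Cx43-KO and 77.3% in control have none, while single cells reach 26 UMIs in EC-Cx43-KO and 12 in control.

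In monocyte/macrophage-like cells much of the difference lay in 1 cluster. The 40 genes were left out when cells were clustered, but other genes that may vary with them could still shape the clusters. A cluster whose leading genes were Cxcl10 and Rsad2 had 216 cells in KO and 16 in control and stood at 40820 CPM in KO and 25470 CPM in control for the 40 genes. It held 65687 of the 133684 UMIs of these genes in KO monocyte/macrophage-like cells and 3116 of the 49896 in control. Without it the class was at 5363 CPM in KO and 4145 CPM in control (log2 ratio 0.37, 0.35 to 0.39), and 11 of 39 genes were higher and 0 lower, beside 8.5% and 3.09% of all genes. The Ccl24-led cluster was at 4278 CPM in KO and 3405 CPM in control (0.33), and the Chil3-led cluster at 6415 CPM in KO and 5739 CPM in control (0.16). The Lyve1-led cluster, of 258 cells in KO and 93 in control, had a wider ratio, at 9312 CPM in KO and 6280 CPM in control (0.57). The Adgre4-led cluster, of 40 cells in KO and 20 in control, stood at 1946 CPM in KO and 1775 CPM in control. Among SMC-like cells the Gm13889-led cluster was at 2182 CPM in KO and 450 CPM in control (2.28), the Sost-led cluster at 349.9 CPM in KO and 204 CPM in control (0.78), and the Cacnb2-led cluster, of 68 cells in KO and 31 in control, at 1142 CPM in KO and 378 CPM in control. The clusters of fibroblast-like cells had ratios of 0.90 to 1.39 and those of neutrophil-like cells 0.83 to 1.37.

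The difference between the libraries also depended on whether cells carried Xist or Y-linked RNA. Among cells with Xist and no Y-linked UMI, the summed level was higher in KO in all 7 classes. SMC-like cells were at 2214 CPM in KO and 304 CPM in control (log2 ratio 2.86), with 28 of 29 measured genes higher and 0 lower, where 7.62% of all genes were higher and 7.92% lower. Fibroblast-like cells were at 4442 CPM in KO and 1031 CPM in control (2.11), with 35 of 35 higher, beside 5.6% higher and 8.72% lower of all genes. Monocyte/macrophage-like cells were at 10490 CPM in KO and 3471 CPM in control (1.60), with 38 of 39 higher and 0 lower, beside 7.85% and 5.5%. EC-like cells were at 1690 CPM in KO and 906 CPM in control (0.90), with 20 of 29 higher beside 4.47%. Dendritic-like cells were at 5388 CPM in KO and 2885 CPM in control (0.90; 29 of 36 higher, beside 7.83%), and neutrophil-like cells at 6114 CPM in KO and 2880 CPM in control (1.09; 23 of 27, beside 12.6%). T/NK-like cells were at 2007 CPM in KO and 1248 CPM in control (0.69), with 4 of 10 higher beside 12.9%.

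Among cells with Y-linked UMIs and no Xist UMI the picture differed. Fibroblast-like cells were at 1515 CPM in KO and 1723 CPM in control (-0.19, -0.23 to -0.14), with 1 of 34 genes higher and 10 lower, beside 5.33% and 6.77% of all genes. Monocyte/macrophage-like cells were at 5467 CPM in KO and 6703 CPM in control (-0.29, -0.32 to -0.26), with 1 of 39 higher and 15 lower, beside 9.34% and 5.9%. Dendritic-like cells were at 3670 CPM in KO and 5519 CPM in control (-0.59), with 1 of 35 higher and 18 lower, beside 12.0% and 18.6%. EC-like cells were at 845 CPM in KO and 850 CPM in control (-0.01, -0.13 to 0.11), with 3 of 26 higher and 7 lower, beside 7.26% and 8.79%. T/NK-like cells were at 1121 CPM in KO and 1354 CPM in control (-0.27), with 0 of 6 higher and 2 lower, beside 14.4% and 17.6%. SMC-like and neutrophil-like cells were the 2 classes higher in KO in both kinds of cell. With Y-linked UMIs, SMC-like cells were at 519 CPM in KO and 338 CPM in control (0.62, 0.45 to 0.80), with 11 of 21 higher and 0 lower, beside 8.56% and 7.74%. Neutrophil-like cells were at 7264 CPM in KO and 6135 CPM in control (0.24), with 10 of 27 higher and 0 lower, beside 13.2% and 14.5%, and when at least 2 sex-linked UMIs were required the ratio was 0.69 there, against 0.68 in Xist cells.

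In the classes given here, Isg15, Rsad2 and Ifit3 were higher in KO with Xist and lower in KO with Y-linked UMIs. Bst2 was higher in KO in both kinds of EC-like cell. These directions differed by class as well as by gene. With Y-linked UMIs, Isg15 was higher in KO in EC-like cells (21.7 CPM in KO and 16.25 CPM in control). SMC-like, neutrophil-like and T/NK-like cells had the same direction for Isg15, and dendritic-like cells the opposite. Bst2 with Y-linked UMIs was lower in KO in monocyte/macrophage-like cells (227.6 CPM in KO and 297.6 CPM in control), dendritic-like and T/NK-like cells. Isg15 in fibroblast-like cells was at 384 CPM in KO and 37.6 CPM in control with Xist, and at 69.3 CPM in KO and 95.4 CPM in control with Y-linked UMIs. In monocyte/macrophage-like cells Rsad2 was at 778 CPM in KO and 60.0 CPM in control with Xist, and at 171 CPM in KO and 186 CPM in control with Y-linked UMIs. Ifit3 in fibroblast-like cells was at 268 CPM in KO and 18.7 CPM in control with Xist, and at 26.4 CPM in KO and 48.2 CPM in control with Y-linked UMIs. Bst2 in EC-like cells was at 303 CPM in KO and 211 CPM in control with Xist, and at 186 CPM in KO and 159.6 CPM in control with Y-linked UMIs. Since the labels do not say which animals were pooled, genotype, sex and single animals cannot be told apart. The part of the makeup of the pools in the differences above was not tested.

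**Figure D5:**
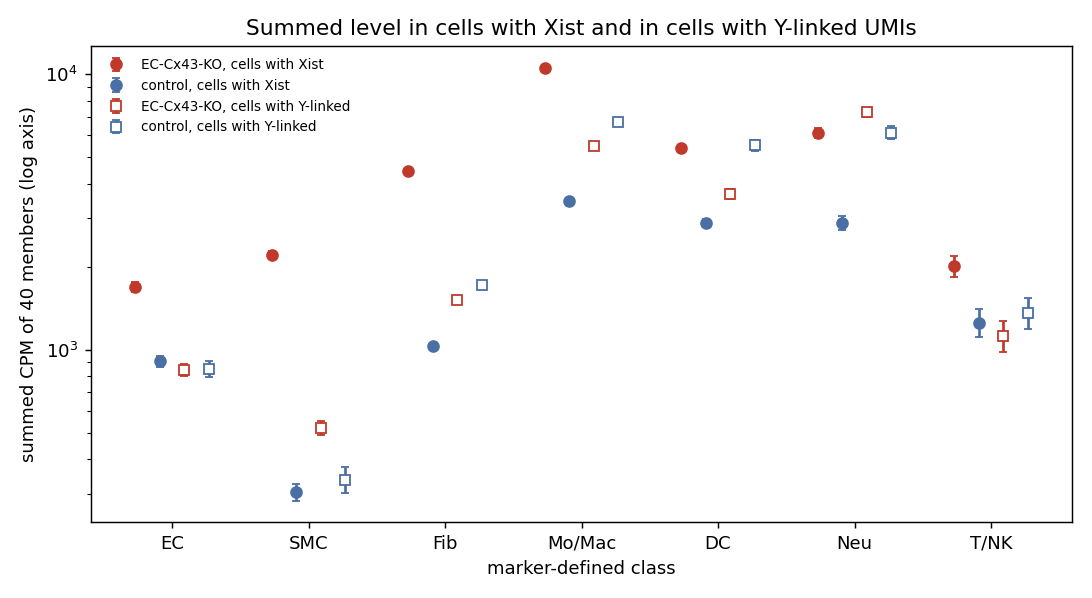
Summed CPM of the 40 genes (vertical log axis) by class (horizontal axis), for the EC-Cx43-KO and the control library, in cells with Xist and no Y-linked UMIs (filled circles) and in cells with Y-linked and no Xist UMIs (open squares); bars are 95% Poisson intervals. Among circles the EC-Cx43-KO point is the higher one in all 7 classes, as at 4442 CPM in EC-Cx43-KO and 1031 CPM in control fibroblast-like cells, whereas among squares it is above control beyond the intervals in SMC-like and neutrophil-like cells only.

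Upstream in the pathway, the 12 type I ligand genes listed gave 5 UMIs over all kept cells in KO, from Ifnb1 and Ifnk, and 3 in control, from Ifnb1, Ifna2 and Ifnz. Of the 7 receptor and kinase genes, all measured in each class, 0 were called higher in any of the 7 classes, where 4.35% to 10.4% of all genes were, so that this count lies near the background. Ifngr1, a receptor chain for interferon gamma, was called lower in neutrophil-like cells (-0.60), where 11.0% of all genes were, and Tyk2 in T/NK-like cells (-0.81, from 8 UMIs in KO and 13 in control), where 14.4% were. The class medians of the 7 genes lay between -0.30 and 0.01. Ifnar1 was at 26.4 CPM in KO and 22.0 CPM in control EC-like cells (0.26) and at 24.6 CPM in KO and 25.3 CPM in control SMC-like cells (-0.04).

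Of 10 genes known mainly for interferon gamma, 7 of 7 measured were higher in SMC-like cells (beside 5.4% of all genes), 7 of 8 in fibroblast-like (5.56%), 7 of 9 in monocyte/macrophage-like (9.15%) and 6 of 7 in neutrophil-like cells (8.26%), with medians of 1.88, 1.17, 1.11 and 1.04. The counts in the other 3 classes lie near the background. Among EC-like cells 0 of 8 were higher and 1 was lower (median -0.26), beside 4.35% and 6.7%, in dendritic-like cells 1 of 8 was higher, beside 6.86%, and in T/NK-like cells 1 of 7, beside 10.4%. Gbp2, a guanylate-binding protein, was at 65.9 CPM in KO and 21.9 CPM in control SMC-like cells (1.59) and at 73.5 CPM in KO and 88.4 CPM in control EC-like cells (-0.27). Igtp, an immunity-related GTPase, was the gene lower in EC-like cells, at 17.6 CPM in KO and 30.4 CPM in control (-0.78).

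Markers of other cell types were detected in each class, some of them at high level. In SMC-like cells the 10 fibroblast markers summed to 4578 CPM in KO and 4529 CPM in control, with all 10 detected in both. The 10 macrophage markers there summed to 49.9 CPM in KO and 42.8 CPM in control, with all 10 detected in both, the 8 monocyte markers to 385 CPM in KO and 451 CPM in control, and the 9 neutrophil markers to 93.3 CPM in KO and 232 CPM in control. The 10 dendritic markers stood at 28.7 CPM in KO, with 4 detected, and 18.2 CPM in control, with 7 detected, and the 5 thymocyte markers at 4.84 CPM in KO and 1.46 CPM in control SMC-like cells. In dendritic-like cells the 8 monocyte markers summed to 7381 CPM in KO and 6691 CPM in control, above the 10 dendritic markers at 3946 CPM in KO and 4553 CPM in control. The 10 macrophage markers there summed to 2293 CPM in KO and 2681 CPM in control. The 6 platelet markers summed to 4548 CPM in KO and 3831 CPM in control monocyte/macrophage-like cells, and in neutrophil-like cells the 8 monocyte markers to 3260 CPM in KO and 3209 CPM in control. The 4 erythroid markers stood at 132 CPM in KO and 14.1 CPM in control SMC-like cells, at 1129 CPM in KO and 393 CPM in control EC-like cells, and at 2150 CPM in KO and 10.4 CPM in control dendritic-like cells. The part of these markers in the differences was not tested.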

How the data were processed

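RNA of 2 libraries of mouse carotid artery cells was analysed, 1 per genotype. The authors deposited UMI counts for every gene and barcode, from Cell Ranger 8.0.1 per the file headers. The submitters' processing notes name STAR, without a version, and mm10. The lowest barcode total was 501 UMIs in both libraries, so barcodes had been filtered before deposit. Totals were 54392831 UMIs in EC-Cx43-KO and 48862850 in control.

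From these counts, cells were kept if they had 300 genes or more and no more than 15% mitochondrial UMIs. Doublets were removed by the share of simulated doublets among each cell's neighbours at an assumed rate of 0.008 per 1000 cells, which took out 476 EC-Cx43-KO (6.17%) and 363 control cells (5.39%). The 2000 most variable genes, without the 40 genes and the pathway lists, gave 30 components, a graph of 20 neighbours and Leiden clusters at resolution 1.0. A cluster was named from at least 3 detected markers and left unnamed where markers of another type led it or its cells were shallow. Monocytes with macrophages, and T cells with NK cells and thymocytes, were merged. Classes of at least 100 cells in each library were described. A Fabp5-led cluster (361 EC-Cx43-KO and 721 control cells) and a shallow Cacna1d-led one (305 cells in each library) stayed unnamed. Both scored best as macrophage. The Fabp5-led cluster had 1 marker of the monocyte/macrophage class and 2 platelet markers among its leading genes.

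UMIs were summed per class and divided by the class total (CPM). Poisson intervals were used for levels, conditional binomial intervals for ratios and Clopper-Pearson intervals for shares. For ratios a count under 3 was set to 3. All 40 genes are accounted for. Those given in detail are, per class, the 4 with the highest control level and, among genes with at least 50 UMIs, the 4 highest and 2 lowest ratios, every restricted gene and the most abundant gene of each role. The genes, lists and classes were chosen with earlier results of these data known. Free RNA, estimated from markers of other classes as a percentage of their level in the library, had a median of 7.83% in EC-Cx43-KO and 6.15% in control. Some pairs of class and marker list lay far above the median. Fibroblast markers in SMC-like cells gave 75.4% in EC-Cx43-KO and 66.6% in control. B markers in T/NK-like cells gave 164% in EC-Cx43-KO and 652% in control. Alternatives changed the filters, doublets, resolution, clustering genes, scaling, count minimum, limits and free RNA, and split cells by sex-linked RNA. Scripts were tested on simulated data. Clustering used leidenalg 0.10.2, igraph 0.11.9 and scikit-learn 1.9.0, intervals SciPy 1.17.1, tables pandas 2.3.3 and NumPy 2.4.6, and figures matplotlib 3.10.9, all under Python 3.11.15.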

Additional observations from a re-analysis of the deposited data

Results flagged for a closer look

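In 3 classes the summed level of the 40 genes differed between EC-Cx43-KO and control in opposite directions in the 2 kinds of cell told apart by sex-linked RNA, with both 95% counting intervals clear of 0, and the difference was not tested. In fibroblast-like cells the log2 ratio was 2.11 in cells with Xist and -0.19 in cells with Y-linked UMIs. In monocyte/macrophage-like cells it was 1.60 with Xist and -0.29 with Y-linked UMIs. In dendritic-like cells it was 0.90 with Xist and -0.59 with Y-linked UMIs, where the Y-linked value rests on 63 EC-Cx43-KO and 33 control cells. T/NK-like cells also had ratios on either side of 0, at 0.69 with Xist and -0.27 with Y-linked UMIs, but the second interval reached 0 (-0.54 to 0.00). EC-like cells had 0.90 with Xist and -0.01 with Y-linked UMIs (-0.13 to 0.11).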

How the results depend on the processing

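No paired analysis was possible because each group has 1 library, and no library could be left out. Over the alternatives that kept both kinds of sex-linked cell, the log2 ratio of the summed level stayed above 0 in all 7 classes, from 0.02 (T/NK-like) to 2.17 (SMC-like). The number of genes called higher moved by over 1.5 times in these cases: in dendritic-like cells, 28 with at least 500 genes per cell and 28 at resolution 2.0, against 16; in T/NK-like cells, 4 with free RNA subtracted, 20 with at least 1 UMI and 0 with at least 100 UMIs, against 10; in EC-like cells, 8 with at least 100 UMIs, against 16. The number of genes measured was not held fixed in these cases, and the count minimum sets it directly, so these are counts and not shares. The dendritic-like class itself held 206 EC-Cx43-KO and 195 control cells in the main setting. It held 90 and 89 with at least 500 genes per cell, and 90 in each library at resolution 2.0. With doublets kept, 4 genes were shared in control, against 2, and with limits of 2-fold and 8-fold 9 were restricted and 8 shared, against 4 and 2. Leaving out the Cxcl10-led cluster, chosen after seeing the data, gave 11 genes in monocyte/macrophage-like cells, against 33. Among Xist cells 29 were higher in dendritic-like and 4 in T/NK-like cells; with at least 2 UMIs required, also chosen after seeing the data, 7 were higher in neutrophil-like and 2 in T/NK-like cells. Among Y-linked cells 3 were higher in EC-like, 11 in SMC-like, 1 in fibroblast-like, 1 in monocyte/macrophage-like, 1 in dendritic-like, 10 in neutrophil-like and 0 in T/NK-like cells, and with at least 2 UMIs 4, 10, 1, 2, 4, 9 and 0 in the same order. Fewer cells and UMIs enter these splits.

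Ratios that changed sign were these. With free RNA subtracted, Ifi204 in EC-like cells was 0.02, and in Y-linked cells with at least 2 UMIs it was 0.85. In Xist cells with at least 2 UMIs, Ifi27l2a in neutrophil-like cells was -0.20. The next pairs give Y-linked cells, with at least 1 and at least 2 UMIs. Fibroblast-like cells had -0.19 and -0.17 for the sum, -0.38 and -0.36 for the median, -0.68 and -0.62 for Ifi44, -0.87 and -0.87 for Ifit3, and -0.65 and -0.79 for Ifit3b. Monocyte/macrophage-like cells had -0.29 and -0.26 for the sum, -0.48 and -0.52 for the median, -0.39 and -0.39 for Ifi211, -0.58 and -0.89 for Ifit1bl1, and -0.58 and -0.33 for Ifit2. SMC-like cells had -0.15 and -0.38 for Eif2ak2, -0.09 and -0.12 for Irf9, and -0.03 and -0.05 for Phf11d. Dendritic-like cells had -0.40 and -0.39 for Ifi205 and -0.44 and -0.23 for Isg15. Neutrophil-like cells had -0.44 and -0.59 for Ifi27l2a, -1.97 and -1.33 for Ifit2, and -0.13 and -0.45 for Ifit3. In Y-linked SMC-like cells Cxcl10 (5 UMIs in EC-Cx43-KO and 0 in control) and Ifi44 (6 in EC-Cx43-KO and 0 in control) gave no ratio, since setting the 0 to 3 UMIs would turn the direction. For these changes the cause was not tested. Depth limits T/NK-like cells most, with 545128 UMIs in EC-Cx43-KO and 503942 in control.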
